A study of Mus musculus with 14 samples.

Results

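Notch signalling passes between touching cells, and 10 of its genes are described here in mouse lens epithelial cells: the ligands Jag1, Jag2 and Dll1, the receptors Notch1, Notch2 and Notch3, the receptor-modifying enzyme Lfng, and the target genes Hes1, Hey1 and Heyl. They were taken by name, as ligands, receptors and classical targets of the pathway, and all 10 were found among the 40853 gene identifiers of the deposited tables. The cells were αTN4-1, a lens epithelial line established from mice that carry a viral T antigen transgene driven in the lens. The cells had been made into 7 stable lines kept under neomycin, labelled WT-CREB, S133A-CREB, KCREB, S133A-KCREB, R314A-CREB, S133A/R314A-CREB and, as their control line, Vector. CREB is a transcription factor that answers cyclic AMP. The serine replaced in S133A is the phosphorylation site through which the coactivator CBP is recruited, the K form is a mutant of the DNA-binding region, and the arginine replaced in R314A lies in the leucine zipper, where CRTC coactivators bind.

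Each line gave 1 library after 24 h with TGFβ at 20 ng/mL in medium without serum and 1 control library, 14 libraries in all. Serum-free medium is given for the treatment only, with no word on the medium of the control cells, and an effect of TGFβ and one of serum removal cannot be told apart. Nor do the labels tell if a line was 1 clone or a pool. No line was sequenced more than once per treatment, so every test on TGFβ uses the 7 lines as its replicates. Apart from a fit that ignored the lines, these tests set the change against the spread of the 7 TGFβ minus control differences.

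In the Notch pathway a Jagged or Delta ligand on one cell binds a Notch receptor on its neighbour, proteases then release the intracellular part of the receptor, and this fragment joins the DNA-binding protein RBPJ in the nucleus to switch on repressors of the HES and HEY families. Fringe enzymes such as Lfng add sugars to the receptor and change which ligands it answers to. In the lens, Jag1 and Notch2 are known for their part in keeping the epithelial cells dividing and in the formation of fibre cells, and Jagged and Notch genes have been studied in the change of epithelial cells into mesenchymal cells that TGFβ sets off.

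Levels are in TPM, a transcript's share of a library, which are scaled for gene length, so levels of different genes can be set side by side. Changes are differences of log2(TPM + 1), which understate the change of genes near 1 TPM. Between 12545 and 13081 genes reached 1 TPM in a library, and mitochondrially encoded genes took 5.59% to 10.8% of the TPM. The number of reads per library is unknown, and no counting interval can be given. Genes known to answer TGFβ were higher after treatment in all 7 lines: Smad7, a feedback inhibitor, averaged 32.8 ± 5.84 TPM in TGFβ libraries and 16.9 ± 3.86 TPM in control libraries (SD, n = 7 each), and Ccn2, a matricellular growth factor gene, averaged 743 ± 238 TPM in TGFβ libraries and 168 ± 90.8 TPM in control libraries. The lens label was checked on 10 markers, of which 8 averaged at least 1 TPM. Pax6, the lens and eye regulator, lay between 54.4 and 187 TPM in TGFβ libraries and between 63.9 and 328 TPM in control libraries, while the epithelial lens regulator Foxe3 was listed at 0 in 13 libraries and the epithelial cadherin Cdh1 reached at most 0.0838 TPM in TGFβ libraries and 0.249 TPM in control libraries. The summed level of the lens markers was 458 to 901 TPM in TGFβ libraries and 574 to 2330 TPM in control libraries. The largest part of that sum was Cryab, at 244 to 529 TPM in TGFβ libraries and 310 to 1670 TPM in control libraries. Creb1 itself checked the line labels. It lay at 38.3 TPM with TGFβ and 34 TPM in controls of S133A-KCREB, at 30.1 and 25.8 TPM in KCREB, and at 23.1 and 20.8 TPM in Vector. The lines labelled WT-CREB, R314A-CREB, S133A-CREB and S133A/R314A-CREB all lay below Vector, between 4.43 and 9.68 TPM with TGFβ and between 6.59 and 11.6 TPM in controls. No source used here names the species of the constructs, so the lines are called by their labels without a claim about the amount of CREB in them.

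The 10 genes spanned a wide range of levels. Averaged over the 14 libraries, Jag1 stood highest at 130 TPM, followed by Hes1 at 54.9 TPM, Notch2 at 43.8 TPM, Notch1 at 27.1 TPM, Lfng at 9.01 TPM and Hey1 at 1.85 TPM. These 6 reached the minimum mean of 1 TPM that a gene needed to enter the tests, as did 12927 genes in all. The other 4 were at or near 0 and were not tested. One of the 6 was called higher with TGFβ (Jag1) and one was called lower (Notch1), by limma with an adjusted p under 0.05, while 24.1% of all tested genes were called higher and 21.4% were called lower. The median change of the 6 was -0.01 on the log2 scale, against 0.02 over all 12927 genes, so the 6 did not shift together.

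Jag1, the Jagged ligand at chr2:136923371-136958440 on the minus strand of GRCm39, rose with TGFβ in every line. Its promoter, credited to RefSeq and given in the older build GRCm38.p6, is shown because Jag1 is the ligand these cells express and because the stretch holds the core of a cyclic AMP response element, the element CREB binds. The bases from 250 to 125 before the start site, at chr2:137116645-137116770 on the minus strand, are written from 5′ to 3′, with capitals marking CGTCA, which is the core TGACG read on the other strand.
Jag1 promoter: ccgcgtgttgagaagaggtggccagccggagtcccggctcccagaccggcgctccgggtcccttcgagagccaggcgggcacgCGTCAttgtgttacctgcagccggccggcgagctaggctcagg
The core stands at -167 to -163. It occurs on either strand in 17.8% of the 32851 mouse promoters searched over the same 250 bases, so its presence is common. The full palindrome TGACGTCA, found in 1.55% of promoters and including that core, was not in the window. The SMAD-binding letters GTCTAGAC (0.167% of promoters) and CAGACA (17.1%) and the RBPJ letters GTGGGAA (5.42%) were not in it either.

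Jag1 reached 311 TPM with TGFβ in KCREB, against 85.9 TPM in its control, and 276 TPM in Vector, against 101 TPM. It reached 231 TPM in S133A-KCREB, against 83.3 TPM in its control, 204 TPM in R314A-CREB, against 75.8 TPM, and 168 TPM in S133A/R314A-CREB, against 38 TPM. The lowest levels with TGFβ were 87.2 TPM in WT-CREB, against 29.4 TPM in its control, and 71.8 TPM in S133A-CREB, against 56.3 TPM. All 7 lines moved up, yet the groups overlapped, because treated S133A-CREB and WT-CREB cells lay among the controls of the other lines. The averages were 193 ± 90.2 TPM in TGFβ libraries and 67.1 ± 26.6 TPM in control libraries (SD, n = 7 each). The fitted change was 1.45 ± 0.17 on the log2 scale (SE; 95% interval 1.07 to 1.83; limma adjusted p = 0.000341), which is 2.74-fold. Among all tested genes, 18.5% were higher with TGFβ in all 7 lines. The exact two-sided Wilcoxon signed-rank test over the 7 differences gave p = 0.0156, the smallest that 7 lines allow.

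The size of the Jag1 change was not the same in each line. On the log2 scale it was 2.12 in S133A/R314A-CREB, 1.84 in KCREB and 1.54 in WT-CREB, and 1.46, 1.44 and 1.42 in S133A-KCREB, Vector and R314A-CREB. S133A-CREB stood apart with 0.34, a TPM ratio of 1.27 against ratios of 2.7 to 4.43 in the other 6 lines. That line had 1 library per treatment, so its small change has no replicate check. In bulk libraries such as these, fewer cells that express a gene and less of its RNA per cell cannot be told apart.

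The other ligands were barely present. Jag2, the second Jagged ligand (chr12:112871423-112893432, minus strand), was listed at 0 in 4 libraries and reached at most 0.312 TPM, in the control of WT-CREB. Dll1, a Delta ligand (chr17:15587616-15597275, minus strand), was listed at 0 in 13 libraries and at 0.0155 TPM in TGFβ-treated KCREB cells. Read per library, Jag1 therefore made up nearly all of the ligand RNA of this group, and no change of Jag2 or Dll1 could be read at these levels.

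Notch1, the receptor at chr2:26347914-26393834 on the minus strand, fell with TGFβ. It stood at 24.9 TPM with TGFβ and 51.5 TPM in the control of S133A-CREB, at 23.3 and 37.7 TPM in KCREB, and at 28.7 and 36.8 TPM in R314A-CREB. It stood at 23.4 TPM with TGFβ and 31.4 TPM in the control of S133A/R314A-CREB, at 19.1 and 32.9 TPM in Vector, at 13.6 and 21.9 TPM in S133A-KCREB, and at 16.4 and 18.4 TPM in WT-CREB. Every treated library lay below its own control, and the groups overlapped because WT-CREB and S133A-KCREB had low Notch1 also without TGFβ. The averages were 21.3 ± 5.22 TPM in TGFβ libraries and 32.9 ± 10.9 TPM in control libraries (SD, n = 7 each). The fitted log2 change was -0.57 ± 0.10 (SE; 95% interval -0.79 to -0.36; limma adjusted p = 0.00153), 0.673 of the control level. Of all tested genes, 15.9% were lower in all 7 lines. The call rests on comparing each line with itself: in a fit that ignored the lines, the change had the same size and an adjusted p of 0.105. The log2 difference was widest in S133A-CREB, at -1.02, the line where Jag1 changed least, and narrowest in WT-CREB, at -0.16. The gene 0610009E02Rik overlaps Notch1 on the other strand with at most 3.8 TPM. Its log2 change with TGFβ was -0.57 ± 0.11 (limma adjusted p = 0.00293, higher in 0 of 7 lines), the size of that of Notch1, and no source used here says whether reads were assigned by strand, so the RNA of the overlapping genes cannot be told apart where they overlap.

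The Notch1 promoter is printed beside that of Jag1 because both genes passed the TGFβ test, in opposite directions. It covers 250 to 3 bases before the start site, at chr2:26503825-26504072 of GRCm38.p6 on the minus strand, and has no capitals because none of the 5 motifs was found in its window.
Notch1 promoter: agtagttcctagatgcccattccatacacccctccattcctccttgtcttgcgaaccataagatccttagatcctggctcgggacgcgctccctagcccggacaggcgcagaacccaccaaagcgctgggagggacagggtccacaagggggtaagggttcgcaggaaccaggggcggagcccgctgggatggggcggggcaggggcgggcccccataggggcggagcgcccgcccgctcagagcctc
G and C made up 66% of its 250 bases, against 57.2% in Jag1. The promoters of Notch2 and Jag2 held none of the 5 motifs either, and that of Notch3 held the core CGTCA at -184 to -180. Dll1 has 2 promoter entries, and each held CAGACA on the other strand, at -123 to -118 in one and at -148 to -143 in the other.

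Notch2, the receptor at chr3:97920854-98057683 on the plus strand, did not pass the TGFβ test. It ran from 33.7 to 58 TPM with a median of 38.1 TPM in TGFβ libraries, and from 32.6 to 63.8 TPM with a median of 38.4 TPM in control libraries. The difference was at most 0.28 in size on the log2 scale in any line, and its fitted value was -0.08 ± 0.05 (SE; 95% interval -0.20 to 0.05; limma adjusted p = 0.274; higher in 2 of 7 lines). Within a library, Notch2 stood above Notch1 in 7 of 7 TGFβ libraries and 6 of 7 control libraries. The exception was the control of KCREB, with a Notch2 to Notch1 ratio of 0.982. That ratio ranged from 1.33 to 3.51 with a median of 1.76 in TGFβ libraries, and from 0.982 to 3.25 with a median of 1.24 in control libraries, and was larger with TGFβ in all 7 lines. Notch3 (chr17:32339794-32385869, minus strand) was listed at 0 in 11 libraries and did not pass 0.0209 TPM. The receptor RNA of these cells was thus that of Notch1 and Notch2, with Notch4, described with the wider pathway, at a few TPM at most.

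Because the ligand rose and a receptor fell, the balance of Jag1 to Notch1 moved in every line. Jag1 stood 2.89 to 17 times as high as Notch1 in TGFβ libraries (median 7.16), and 1.09 to 3.79 times as high in control libraries (median 2.06). The ratio grew by a factor of 2.64 in S133A-CREB, the smallest, and 5.92 in S133A/R314A-CREB, the largest. In S133A-CREB, where Jag1 alone had a TPM ratio of 1.27, most of this movement was the lower Notch1. Jag1 over Notch2 was also larger with TGFβ in all 7 lines, with medians of 5.34 in TGFβ libraries and 2 in control libraries. These ratios restate the levels above within a library and carry no test of their own.

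**Figure D1:**
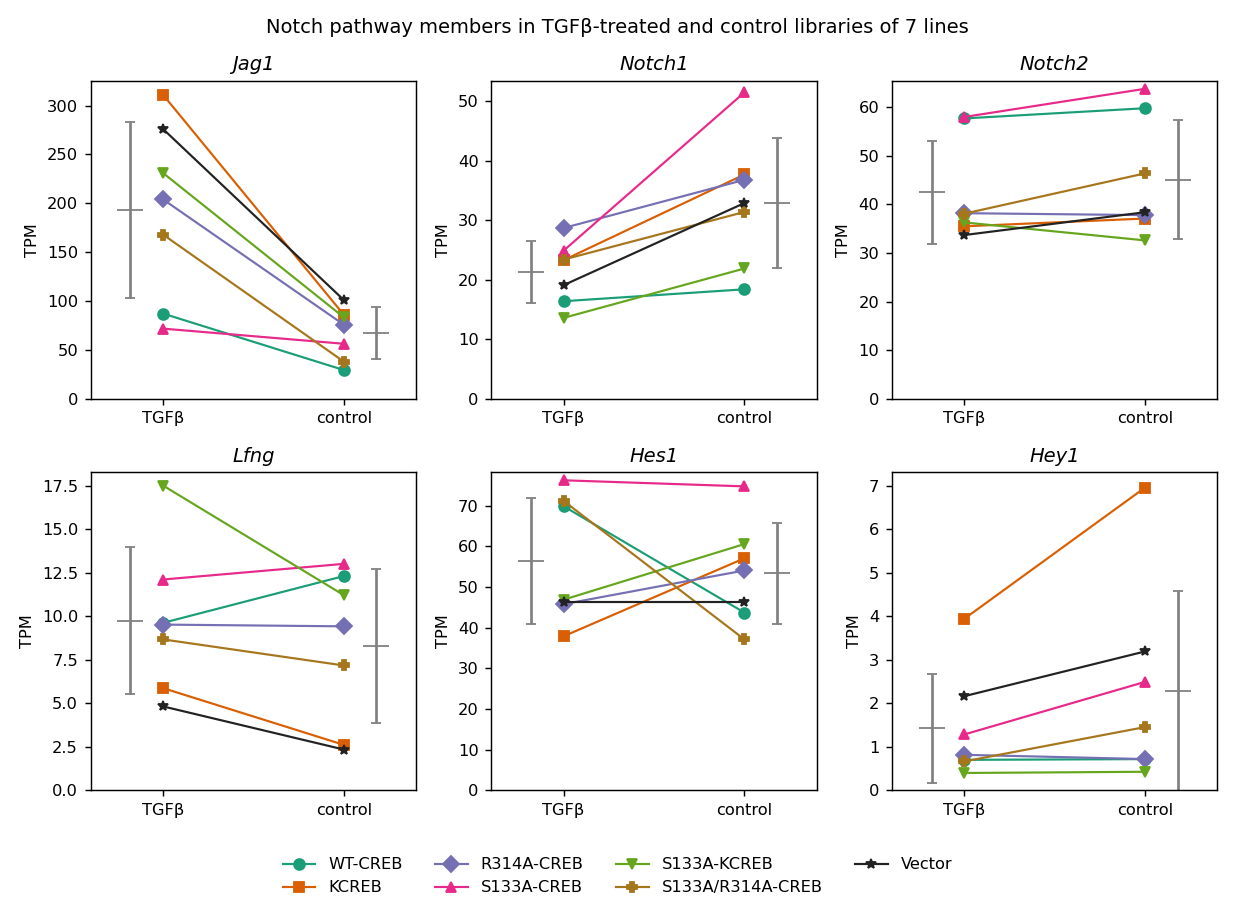
TPM of the 6 tested genes in TGFβ and control libraries, with a line joining the libraries of each of the 7 lines; grey bars give the mean and SD (n = 7), and the lower bar of the Hey1 controls ends just under 0 and is cut by the axis. In all 7 lines the TGFβ level of Jag1 is above the control level and that of Notch1 below it, while the Hes1 lines cross.

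Lfng, the Fringe enzyme at chr5:140593096-140601300 on the plus strand, differed more between lines than with treatment. It ran from 4.81 to 17.5 TPM with a median of 9.51 TPM in TGFβ libraries, and from 2.33 to 13 TPM with a median of 9.41 TPM in control libraries. The fitted log2 change was 0.31 ± 0.15 (SE; 95% interval -0.03 to 0.65; limma adjusted p = 0.125), with 5 of 7 lines higher, so no change was called over all lines. The lines with the least Lfng in control cells showed the largest differences: 5.86 TPM with TGFβ and 2.6 TPM in the control of KCREB, and 4.81 and 2.33 TPM in Vector, log2 differences of 0.93 and 0.80. The single control level of a line is part of its difference, so the 2 are tied by arithmetic and their relation was not tested. S133A-KCREB had 17.5 TPM with TGFβ and 11.2 TPM in its control, while WT-CREB went the other way with 9.61 and 12.3 TPM. Without WT-CREB the fitted change was 0.42 with an adjusted p of 0.0444, so the missing call turned on that line. The Lfng promoter is printed because, of the 7 genes with a promoter entry, it alone held the RBPJ letters GTGGGAA, in capitals at -109 to -103, in the bases 250 to 22 before the start site (chr5:140607091-140607319, plus strand, GRCm38.p6).
Lfng promoter: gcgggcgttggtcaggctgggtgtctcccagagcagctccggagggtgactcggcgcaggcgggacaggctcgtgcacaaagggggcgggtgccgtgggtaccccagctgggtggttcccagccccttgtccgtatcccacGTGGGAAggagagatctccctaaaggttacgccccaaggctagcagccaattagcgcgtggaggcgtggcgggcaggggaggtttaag
The letters were in 5.42% of all promoters. Lfng is known as a Notch target in the somites of the embryo, and nothing about binding in these cells was measured. Of the 10 genes, 7 had an entry in the promoter table, and Hes1, Hey1 and Heyl are named only.

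Neither of the tested target genes was called with TGFβ. Hes1, the repressor read most often as a Notch target (chr16:29884175-29886614, plus strand), ran from 37.9 to 76.3 TPM with a median of 46.9 TPM in TGFβ libraries, and from 37.1 to 74.8 TPM with a median of 54.1 TPM in control libraries. Its fitted log2 change was 0.06 ± 0.17 (SE; 95% interval -0.31 to 0.44; limma adjusted p = 0.784). That small average hid lines that moved apart. Hes1 stood at 71.2 TPM with TGFβ and 37.1 TPM in the control of S133A/R314A-CREB, and at 69.9 and 43.7 TPM in WT-CREB, log2 differences of 0.92 and 0.67. It stood at 37.9 TPM with TGFβ and 57.1 TPM in the control of KCREB (-0.58), at 46.9 and 60.6 TPM in S133A-KCREB (-0.36), and at 45.8 and 54.1 TPM in R314A-CREB (-0.24). S133A-CREB and Vector differed by 0.03 or less. With 1 library per line and treatment, whether these line-by-line differences are repeatable was not tested. Leaving out either WT-CREB or S133A/R314A-CREB turned the fitted change to -0.04 or -0.08, so no direction can be given for Hes1.

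Hey1, a second target repressor (chr3:8728419-8732098, minus strand), was low. It ran from 0.394 to 3.94 TPM with a median of 0.812 TPM in TGFβ libraries, and from 0.422 to 6.96 TPM with a median of 1.45 TPM in control libraries. KCREB was the highest line in both groups. The fitted log2 change was -0.32 ± 0.12 (SE; 95% interval -0.60 to -0.04), with 1 of 7 lines higher, and did not pass the threshold (limma adjusted p = 0.0598). It lay close enough that leaving out WT-CREB (-0.37, adjusted p = 0.048) or R314A-CREB (-0.39, adjusted p = 0.0392) put it past the threshold. The lines with more than 1.4 TPM in control cells held the larger differences: 3.94 TPM with TGFβ and 6.96 TPM in the control of KCREB, 1.28 and 2.49 TPM in S133A-CREB, 0.66 and 1.45 TPM in S133A/R314A-CREB, and 2.16 and 3.19 TPM in Vector. In WT-CREB, R314A-CREB and S133A-KCREB, Hey1 was under 1 TPM with and without TGFβ, where log2(TPM + 1) understates a change. The cut of 1.4 TPM was not planned, and the control level is part of each difference, so a relation between them was not tested. Heyl, the third target of this group (chr4:123127349-123143663, plus strand), was listed at 0 in 6 libraries and reached at most 0.0831 TPM.

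**Figure D2:**
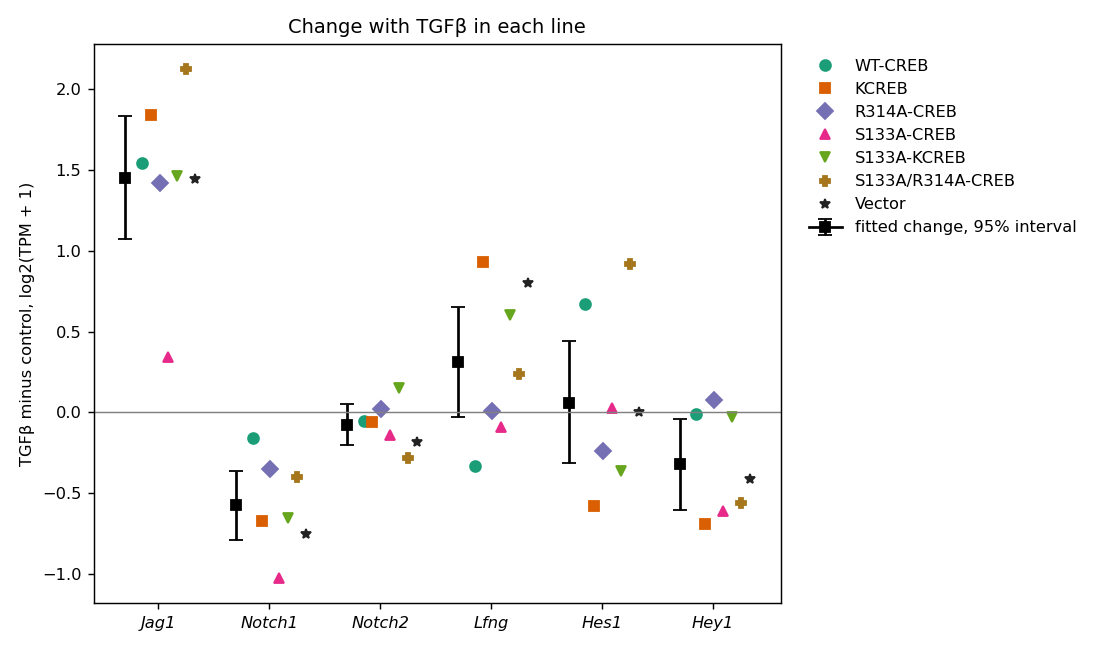
TGFβ minus control on the log2(TPM + 1) scale for the 6 tested genes, 1 point per line; black squares with bars give the fitted change over 7 lines and its 95% interval. All points of Jag1 lie above 0 with S133A-CREB lowest at 0.34, all points of Notch1 lie below 0, and the points of Hes1 reach from -0.58 to 0.92.

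The changes of Jag1 and of the target genes were also set side by side across the 7 lines. Pearson's r between the line-by-line log2 changes was 0.23 for Jag1 and Hes1 (Spearman's rho 0.14) and 0.03 for Jag1 and Hey1 (rho -0.25). These are descriptions over 7 lines in which each pair of values comes from the same libraries. Jag1 over Hes1 within a library had a median of 4.46 in TGFβ libraries and 1.37 in control libraries and was larger with TGFβ in all 7 lines.

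The level of most of the tested genes depended on the line. With treatment taken out, a limma F test over the 7 lines called 5 of the 6 genes, all but Hes1 (F = 1.14, adjusted p = 0.431). It called 71.4% of all tested genes, so differing between lines was the rule in these data. The test sets the distance between lines against how far the libraries of a line depart from the common TGFβ shift, and it does not separate the construct from any other property of a line. In what follows, line means are averages of log2(TPM + 1) over the TGFβ and control library of a line, and neighbours in the order are called apart where they differ by more than 2 standard errors of the difference.

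Jag1 spanned 1.70 log2 units, with Vector highest at 7.40, then KCREB at 7.36, S133A-KCREB at 7.13, R314A-CREB at 6.97, S133A/R314A-CREB at 6.34, S133A-CREB at 6.01 and WT-CREB at 5.69 (F = 9.31, adjusted p = 0.00432). The widest step between neighbours was 0.63, from R314A-CREB to S133A/R314A-CREB, just under 2 standard errors of 0.32 each. No neighbours were thus called apart, by a narrow margin that does not show a gradient without a break. Without S133A-CREB, the line with the smallest TGFβ change of Jag1, the limma F was 32.7 (adjusted p = 0.000441). WT-CREB cells held less Jag1 than Vector cells, with 87.2 against 276 TPM after TGFβ and 29.4 against 101 TPM in controls. Notch1 spanned 1.01 log2 units (F = 10, adjusted p = 0.00354). Its highest line was S133A-CREB at 5.20, 5 lines reached down to Vector at 4.71, and WT-CREB and S133A-KCREB, both at 4.20, were set apart below them by a step of 0.51. Notch2 spanned 0.80 log2 units (F = 21.7, adjusted p = 0.000427). S133A-CREB at 5.95 and WT-CREB at 5.90, the CREB-construct lines labelled with neither K nor R314A, stood 0.47 above the other 5 lines. Those 5 lay between 5.15 and 5.43, among them Vector, labelled with no CREB construct, at 5.21. In TPM, Notch2 lay between 57.7 and 63.8 in the 4 libraries of S133A-CREB and WT-CREB and between 32.6 and 46.4 in the other 10.

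Lfng spanned 1.77 log2 units (F = 11.8, adjusted p = 0.00226). S133A-KCREB was highest at 3.91, and a step of 0.84 set KCREB at 2.31 and Vector at 2.14 below the other 5 lines. Hey1 spanned 2.16 log2 units, the most of the 6 (F = 21.4, adjusted p = 0.000446). KCREB stood highest at 2.65, 0.79 above Vector at 1.86, S133A-CREB followed at 1.50, and a step of 0.49 led to the last 4 lines, which ended with S133A-KCREB at 0.49. Hes1 had the narrowest span, 0.69 log2 units, with S133A-CREB highest at 6.26 and Vector lowest at 5.57.

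**Figure D3:**
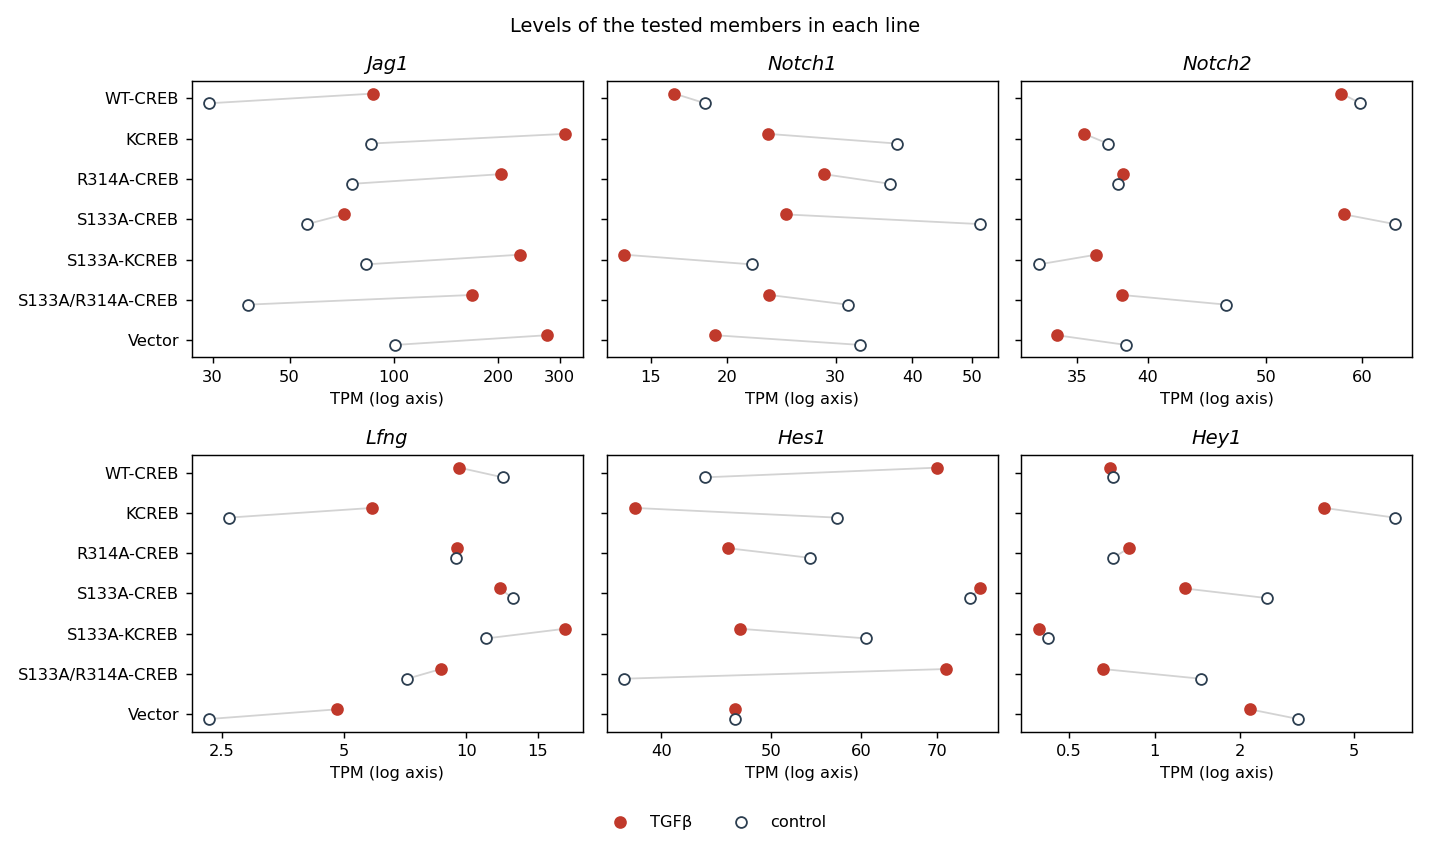
TPM on a log axis for the 6 tested genes in each of the 7 lines, with filled points for TGFβ libraries and open points for control libraries. Notch2 is high in WT-CREB and S133A-CREB in both treatments, Lfng is low in KCREB and Vector, and Hey1 is highest in KCREB.

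The Creb1 level moved with some of these orders. The 3 lines with the most Creb1, S133A-KCREB, KCREB and Vector, were also the 3 with the most Jag1. Over the 7 line means, Pearson's r with Creb1 was 0.71 for Jag1 (Spearman's rho 0.64), -0.67 for Notch2 (rho -0.86) and -0.52 for Notch1 (rho -0.68), and it was -0.36 for Lfng, -0.56 for Hes1 and 0.26 for Hey1. Both values of a point come from the same libraries, and the part of Creb1 in the levels was not tested. For Hey1, KCREB and S133A-KCREB, both with high Creb1, were the highest and the lowest line.

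The design also crosses the S133A change with 3 states of the DNA-binding and zipper region, over the 6 lines labelled for a CREB construct. In limma fits on line means, 0% of all tested genes were called for S133A, 0% for the K change, 0% for R314A and 0% for the dependence of the TGFβ change on S133A, so none of the 6 Notch genes was called in any of them. At an unadjusted p under 0.05 there were 751, 1308, 822 and 458 genes in these limma fits, and the members among them were 0, 2, 2 and 0.

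The S133A difference on the log2 scale was -0.18 ± 0.21 for Jag1, 0.00 ± 0.36 for Notch1, 0.04 ± 0.14 for Notch2, 0.52 ± 0.39 for Lfng, 0.23 ± 0.15 for Hes1 and -0.41 ± 0.60 for Hey1 (SE; limma adjusted p between 0.824 and 0.999). The wide errors of Lfng and Hey1 came from pairs that differed, in direction for Hey1 and mainly in the size of the K pair for Lfng. Hey1 stood at 0.394 TPM in S133A-KCREB and 3.94 TPM in KCREB with TGFβ, and at 0.422 and 6.96 TPM in controls. In the pair labelled with neither K nor R314A it was the reverse, with 1.28 TPM in S133A-CREB and 0.696 TPM in WT-CREB with TGFβ, and 2.49 and 0.713 TPM in controls. Lfng stood at 17.5 TPM in S133A-KCREB and 5.86 TPM in KCREB with TGFβ, and at 11.2 and 2.6 TPM in controls. S133A-CREB was above WT-CREB by 0.31 log2 units with TGFβ and 0.07 in controls. S133A/R314A-CREB was below R314A-CREB, by 0.35 log2 units or less. Without the K lines the S133A difference of Lfng was -0.02 and that of Hey1 was 0.46, so neither has a direction that holds across pairs. Notch1 was higher in S133A-CREB than in WT-CREB (51.5 and 18.4 TPM in controls) and lower in S133A-KCREB than in KCREB (21.9 and 37.7 TPM in controls).

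Jag1 and Notch2 were the members with an unadjusted p under 0.05 for the K change and for R314A. Jag1 differed by 1.39 ± 0.26 log2 units between K lines and the CREB-construct lines with neither K nor R314A (limma adjusted p = 0.288). Between R314A lines and those same CREB-construct lines it differed by 0.80 ± 0.26 (limma adjusted p = 0.766). Notch2 differed by -0.74 ± 0.17 for K (adjusted p = 0.315) and by -0.57 ± 0.17 for R314A (adjusted p = 0.757). None of these passed the threshold, and the Vector line, labelled with no CREB construct, had Jag1 and Notch2 levels like those of the K lines rather than of WT-CREB and S133A-CREB. The dependence of the TGFβ change on S133A was -0.29 ± 0.34 log2 units for Jag1, -0.30 ± 0.20 for Notch1 and 0.25 ± 0.33 for Hes1 (limma adjusted p = 0.999 for all). For Jag1 the S133A lines included both the smallest change, 0.34 in S133A-CREB, and the largest, 2.12 in S133A/R314A-CREB.

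The rest of the pathway was followed on a list of 65 further genes, of which 51 were tested. With TGFβ, 13 rose, 12 fell and 26 were not called, with a median log2 change of -0.01, and the share in each direction was near the 24.1% and 21.4% of all tested genes. Between lines, 44 of the 51 differed, a larger share than the 71.4% of all tested genes, and this excess was not tested. All 4 further ligands were too low to test, with Dlk2 reaching at most 1.58 TPM and Dll4 0.149 TPM. Among the genes listed as other targets, Bhlhe40, a repressor of the same helix-loop-helix class, rose. It averaged 280 ± 87.2 TPM in TGFβ libraries and 154 ± 57.8 TPM in control libraries, a log2 change of 0.90 ± 0.10 (limma adjusted p = 0.000308). Bhlhe40 also answers hypoxia and other signals and is not a Notch reporter by itself. Hes6 (-0.08) and Bhlhe41 (0.07) were not called. Whether Hes6, Bhlhe40 or Bhlhe41 answers Notch in these cells was not tested, so they give no measure of target output. Of the 9 genes listed as other targets, 6 were too low to test, among them Nrarp, with at most 1.71 TPM, and Hey2, listed at 0 in all 14 libraries.

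In the nuclear complex, 3 of 9 genes rose and 2 fell. Rbpj, the DNA-binding partner of the Notch fragment, averaged 26.1 TPM in TGFβ libraries and 19.1 TPM in control libraries (log2 change 0.43 ± 0.06, limma adjusted p = 0.000636, higher in 7 of 7 lines). Kat2b, an acetyltransferase coactivator, averaged 45.4 ± 6.28 and 72.5 ± 14 TPM in the same order (-0.65 ± 0.07, adjusted p = 0.000199), and the coactivators Maml3 (0.27) and Maml2 (-0.26) moved in opposite directions. Of the 12 corepressors, 3 rose and 3 fell. Ctbp2 averaged 69.5 ± 15.5 TPM in TGFβ libraries and 48.8 ± 8.45 TPM in control libraries (0.49 ± 0.08, adjusted p = 0.00143), whereas Tle2 averaged 7.44 ± 2.39 and 12.3 ± 3.98 TPM (-0.64 ± 0.12, adjusted p = 0.00271) and Tle4 10.4 ± 4.02 and 17.1 ± 6.69 TPM (-0.62 ± 0.12, adjusted p = 0.00354). Tle2 and Tle4 encode Groucho-type partners that HES repressors recruit.

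Among the receptor proteases, Furin rose and Aph1b fell. Furin, which makes the first cut of the receptor and also processes TGFβ precursors, averaged 125 ± 38.9 TPM in TGFβ libraries and 87.9 ± 21.8 TPM in control libraries (log2 change 0.48 ± 0.08, limma adjusted p = 0.00201) and Aph1b, of the γ-secretase complex, fell by 0.24. Of the 13 endocytosis and ubiquitin genes, 3 rose and 5 fell. Among the ligases that act on the ligands, Mib2 (0.23) and Mib1 (0.18) rose and Neurl1b (-0.55) fell. Fbxw7, which marks the active receptor fragment for destruction, averaged 25.4 ± 2.16 TPM in TGFβ libraries and 18.2 ± 1.77 TPM in control libraries (0.46 ± 0.06, adjusted p = 0.00052), and Dtx4, a Deltex ligase, averaged 65.2 ± 14.6 and 98.3 ± 28.7 TPM (-0.57 ± 0.06, adjusted p = 0.000222). Of the 3 sugar transferases tested, 1 fell, the Fringe enzyme Rfng, by 0.31.

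Notch4, a receptor best known from endothelium, was outside the rule by which pathway genes were named and is described because it was the only other receptor. It rose in 7 of 7 lines, with 4.4 TPM with TGFβ and 0.652 TPM in the control of Vector, 3.34 and 0.341 TPM in S133A/R314A-CREB, 3.64 and 1.52 TPM in S133A-CREB, and 1.94 and 0.346 TPM in KCREB. WT-CREB had the least gain, with 0.456 TPM with TGFβ and 0.3 TPM in its control. The averages were 2.29 ± 1.52 TPM and 0.557 ± 0.455 TPM, and the fitted log2 change was 0.98 ± 0.19 (limma adjusted p = 0.00321). Notch4 averaged less than 1 TPM in controls and entered the test only through its level in TGFβ libraries, and in a fit with no minimum level its adjusted p was 0.0152. At these low levels the value depends on the constant added before the logarithm, being 0.37 with 5 and 1.77 with 0.1, with the call kept under both. Outside that rule are also Rbpj and the other pathway genes named above with a change or a highest level alone. Of 12 endothelial markers, 1 averaged at least 1 TPM (Esam), and their summed level was 2.47 to 5.34 TPM in TGFβ libraries and 1.69 to 4.15 TPM in control libraries. Of 9 pericyte and smooth muscle markers, 3 did, led by Pdgfrb at 101 to 333 TPM in TGFβ libraries and 70.3 to 297 TPM in control libraries, with Kcnj8 at 0 in all 14. Of 6 macrophage markers, 3 did, summing to 13.9 to 42.2 TPM in TGFβ libraries and 25.2 to 89.2 TPM in control libraries, with Adgre1 and C1qa at 0 in all 14. The part of such cells in the Notch4 result was not tested.

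**Figure D4:**
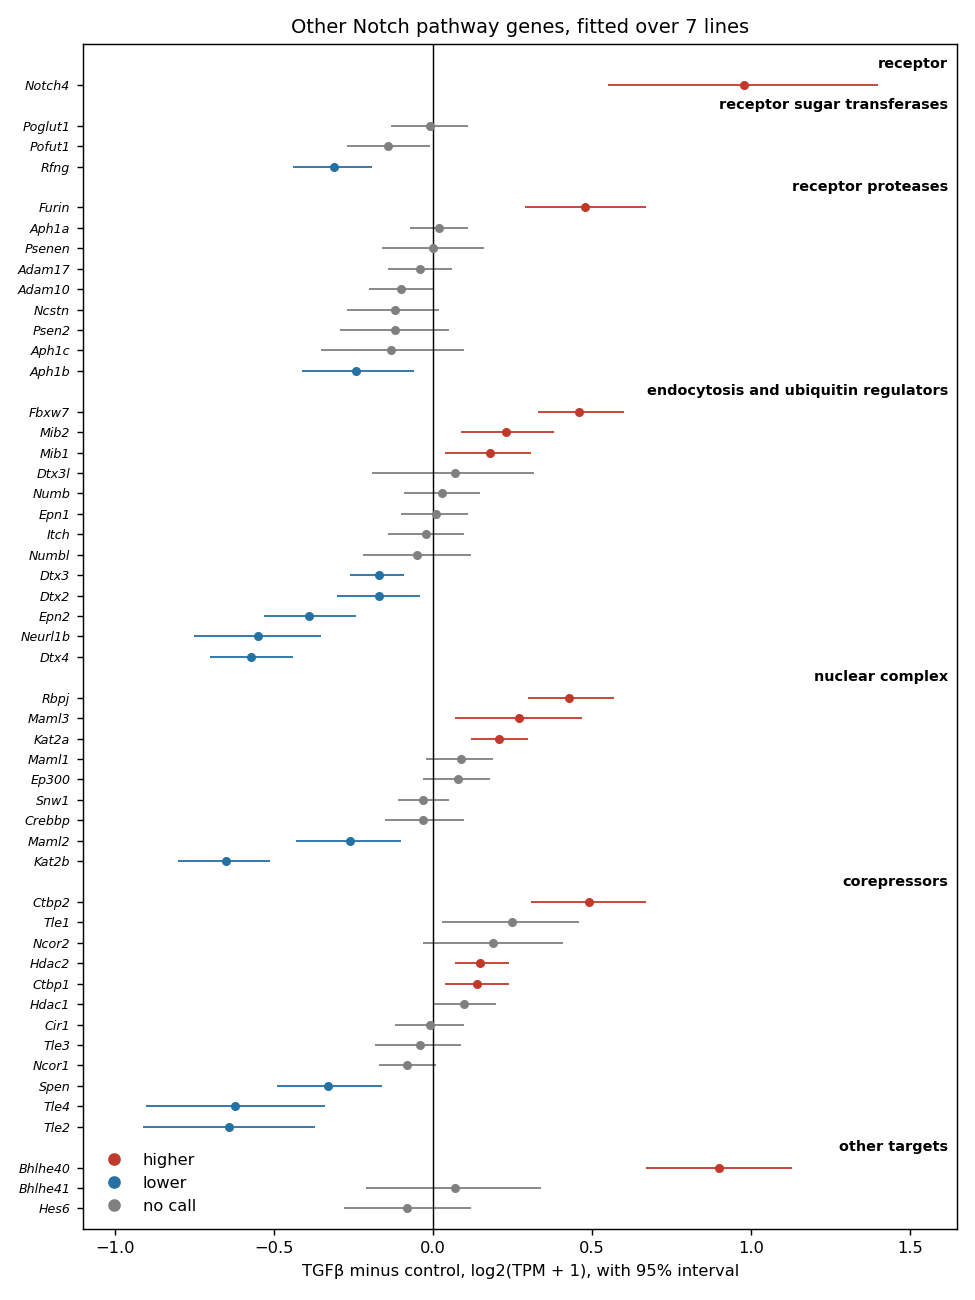
TGFβ minus control on the log2(TPM + 1) scale for 50 of the 51 tested genes of the wider pathway list, grouped by role; points are fitted changes over 7 lines, bars are 95% intervals, red marks genes called higher, blue genes called lower and grey no call. Notch4 and Bhlhe40 lie farthest to the right, and Kat2b, Tle2, Tle4 and Dtx4 farthest to the left.

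For each gene of the group averaging at least 5 TPM, the genes with the most similar pattern over the 14 libraries were found by Pearson's r on log2(TPM + 1) among 10129 genes. Jag1 was closest to Pdia6 (r = 0.952), Xbp1 (0.947) and Icmt (0.928). Notch1 was closest to Mpst (0.929), Tnrc18 (0.893) and Rarres1 (0.888), and Notch2 to Nfkb1 (0.943), Fut11 (0.940) and Olfml2b (0.929). Lfng was closest to Mrtfa (0.945), Relb (0.936) and Cdc42ep1 (0.930). Hes1 had no close match, its best being Lst1 at 0.764. These values describe 14 libraries that share lines and treatments, and each is the highest of 10129 values.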

How the data were processed

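RNA was sequenced from 14 libraries, 7 αTN4-1 lines with and without TGFβ. The authors deposited gene abundance tables with FPKM, TPM and coverage (signal) per gene, and per the file headers each row is a gene. The submitters' processing notes name STAR 2.7.6a, StringTie 2.0.4 and edgeR and the build GRCm39, with no order. TPM values, scaled by the authors for gene length and library, were the main measure. FPKM was an alternative, and the deposited coverage was used only for depth: 1 FPKM was worth a coverage of 4.95 to 9.87 (median 6.55) in a library. Genes given on 2 lines were summed. Read counts were not used here, so limma 3.58.1 in R 4.3.3 was fitted to log2(TPM + 1) of the 12927 genes averaging at least 1 TPM, with an intensity trend and Benjamini-Hochberg adjustment over all of them (threshold 0.05). The TGFβ fit had the line as a block, since libraries of a line share its cells: their deviations from the group means correlated at 0.614 to 0.845, against at most 0.275 between lines. The difference between lines was an F test with treatment as a term. S133A, K and R314A effects were fitted on means of the 6 CREB lines, and the interaction on their TGFβ minus control differences. Libraries correlated at no more than 0.989, so none was a copy. Named were all 10 genes and, of the wider list, the 4 genes called higher and the 4 called lower with the largest changes among those averaging at least 5 TPM; other genes of that list were named after their values were seen. The genes and lists were chosen with earlier results of these data known. The alternatives were other pseudocounts (0.1 and 5), filters, scalings, FPKM, no trend, no block, the exact Wilcoxon test, other S133A fits and leaving out each line. Promoters came from RefSeq (GRCm38.p6), a build other than that of the tables, and were searched over 250 bases before the start site on both strands. One gene of the wider list is not reported here by name.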

Additional observations from a re-analysis of the deposited data

Results flagged for a closer look

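Each of the 6 tested genes was looked at in 3 groups of 7 values (TGFβ levels, control levels and changes), 18 groups in all, for a value far from the others by Dixon's test. Chance flags about 1 group in 20. The log2 change of Jag1 in S133A-CREB, 0.34, lay below those of the other 6 lines, with a gap of 0.606 of the whole range, past Dixon's critical value for 7 values. The Hey1 level in the control library of KCREB, 6.96 TPM, lay above the other 6 control libraries, with a ratio of 0.576, and its TGFβ-treated partner, at 3.94 TPM, was also the highest of its group.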

How the results depend on the processing

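Of 701 values under other settings, 676 changed little: tested values kept their direction and their side of the threshold, counts stayed within 1.5 times and the median within 0.1 log2 units. Jag1 kept its call in every alternative (1.34 to 1.64, adjusted p 0.000123 to 0.0455), and Notch1 in all but 1 (-0.64 to -0.50). Without the replicate block, that is without pairing libraries by line, 645 genes were called higher and 519 lower, against 3110 and 2762 with it; of the 10 genes 0 were called lower, of the wider list 4 higher and 1 lower, and Notch1 (adjusted p = 0.105), Rbpj (0.121), Furin (0.141), Tle2 (0.0966), Tle4 (0.286) and Dtx4 (0.05) lost their calls. Without the intensity trend 2 members were called lower (Hey1, adjusted p = 0.041). Leaving out 1 line at a time, 1 to 2 members were called higher and 1 to 2 lower, through Lfng (0.42 without WT-CREB) and Hey1 (without WT-CREB or R314A-CREB), and Hes1 ranged from -0.08 to 0.17, being -0.04 without WT-CREB. For S133A, 4 genes were called without a term for K and R314A and 28 over 12 libraries with the line as a random block, none of them a member. Leaving out 1 pair of lines, the S133A difference ranged from -0.02 to 0.89 for Lfng and from -0.98 to 0.46 for Hey1. Under other settings the median change of all genes lay between -0.00 and 0.02. Hey1 and Notch4 were not tested at a minimum of 5 TPM. The causes of these shifts were not tested. Depth limits Hey1 most, and the 4 genes near 0 cannot be read at this depth.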
